A study of Mus musculus with 6 samples.

Results

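The major urinary protein (Mup) genes were followed through the liver transcriptome of WT and TRIM24 C52/55A knockin mice on a high-fat diet (HFD). The 10 genes described here are *Mup1*, *Mup3*, *Mup7*, *Mup9*, *Mup11*, *Mup14*, *Mup17*, *Mup19*, *Mup20* and *Mup21*, taken by name from the 21528 genes that were listed in at least 1 of the 6 libraries. They were selected on measured values, namely FPKM (fragments per kilobase of transcript, relative to all mapped fragments of that library) that had already been compared between the genotypes, so their difference between WT and KI livers is given as a description, and nothing is read from a test of it. A further 28 rows carry a Mup name and were not on that list.

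Major urinary proteins are small secreted lipocalins, barrel-shaped carriers that hold volatile odorants in a central pocket. Hepatocytes make them in large amounts, the kidney passes them into urine, and there they release their ligands slowly and act as scent signals themselves. Adult males make far more than females, and the hepatic genes are known to respond to the pulsed male pattern of growth hormone through STAT5B, and to androgen and thyroid hormone. *Mup20* encodes darcin, the male pheromone protein of mouse urine.

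Livers of 3 WT and 3 TRIM24 C52/55A mice, here called KI as in their labels, gave 1 RNA library each. All mice are labelled as strain C57BL/6 (the knockin was generated on C57Bl/6J), were 5 months old and had been fed a diet with 60% of its energy from fat for 3 months. In the knockin, made by CRISPR/Cas9, the endogenous *Trim24* gene carries alanine in place of 2 RING-domain cysteines in every tissue, so a change in the liver need not start in hepatocytes. The homozygous knockins and their WT littermates came from heterozygous parents. The exchange of 2 codons leaves what FPKM count unchanged, so the *Trim24* level cannot check the genotype labels. The sex of these mice is not given in their labels, and since Mup levels differ by sex it was checked from the data: 4 Y-linked genes (*Ddx3y*, *Eif2s3y*, *Kdm5d* and *Uty*) had at least 1.33 FPKM in every library, and *Xist* reached at most 0.00403 FPKM.

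All 10 genes lie on the minus strand of chromosome 4 between positions 60066469 and 62150863 (GRCm38), a span of 2.08 Mb, and for each of them the interval in the files matched the GENCODE M21 gene exactly. From the centromeric end the order is *Mup7* (60066469 to 60070475), *Mup9* (60418046 to 60421952), *Mup1* (60498012 to 60501960), *Mup11* (60658466 to 60662411), *Mup14* (61300023 to 61304000), *Mup17* (61591929 to 61595871), *Mup19* (61778324 to 61782269), *Mup20* (62050234 to 62054158), *Mup3* (62083476 to 62087342) and *Mup21* (62147932 to 62150863). Neighbouring members are separated by 29317 to 637611 bp, and most of the other Mup rows lie in those gaps. The coding sequences of the members run to between 540 and 552 bp.

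The coding sequences divide the members into a near-identical central set and 3 genes that differ more from it. *Mup1*, *Mup7*, *Mup9*, *Mup11*, *Mup14*, *Mup17* and *Mup19* were 98.3% to 99.8% identical to each other over their coding sequences. *Mup9* and *Mup19* differed at 1 coding base, C13T (the base of *Mup9*, its position from the A of the start codon, then the base of *Mup19*). *Mup20* was at most 91.3% identical to any other member. *Mup3* and *Mup21*, at the telomeric end, were 94.7% identical to each other and 82.3% to 84.7% identical to the central set. A 60-base stretch of exon 2 is shown because it holds differences of each kind, with the bases that differ from *Mup9* in capitals (GRCm38, minus strand, 5′ to 3′).
*Mup9* (chr4:60421369-60421428): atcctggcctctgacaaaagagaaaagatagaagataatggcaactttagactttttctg
*Mup7* (chr4:60069783-60069842): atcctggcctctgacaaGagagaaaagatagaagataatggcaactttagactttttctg
*Mup17* (chr4:61595243-61595302): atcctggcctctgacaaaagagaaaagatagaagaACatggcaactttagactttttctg
*Mup20* (chr4:62053530-62053589): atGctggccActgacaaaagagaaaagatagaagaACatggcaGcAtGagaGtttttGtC
*Mup3* (chr4:62086850-62086909): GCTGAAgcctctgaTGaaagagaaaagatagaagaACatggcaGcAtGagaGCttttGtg
*Mup1*, *Mup11*, *Mup14* and *Mup19* hold the same 60 bases as *Mup9* in this stretch, and *Mup21* holds the same as *Mup3*. A fragment confined to this stretch could therefore not be assigned to 1 of the first 5 genes, nor to 1 of the last pair. *Mup7* differed from *Mup9* at 1 base here, *Mup17* at 2, *Mup20* at 10 and *Mup3* at 16.

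How far the copies can be separated by sequencing was read from the share of 50-base windows of each coding sequence that also occur in another Mup gene. That share was 100% for *Mup9*, *Mup11* and *Mup19*, 95.7% for *Mup14*, 94.9% for *Mup1*, 93.5% for *Mup7* and 89.8% for *Mup17*. For *Mup20* it was 84.8%, all of it shared with the pseudogene *Mup-ps19*. It was 25.8% for *Mup3* and 24.5% for *Mup21*, the lowest of the 10. With 100-base windows the share was 5.7% for *Mup3*, 5.9% for *Mup21*, 71.8% for *Mup20*, 75.5% for *Mup17*, 76.2% for *Mup7*, 83.9% for *Mup14*, 94.3% for *Mup1* and again 100% for *Mup9*, *Mup11* and *Mup19*. The levels of the 7 central copies depend on how the authors' quantification divided shared fragments. Their sum is open to that division too, since some of their nearest copies lie outside the 7. In 50-base windows these were *Mup12* for *Mup1* and *Mup7*, and *Mup18* for *Mup9* and *Mup11*.

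The start regions of 8 of the 10 members were found in the RefSeq promoter table (250 bases before to 50 bases after the annotated start, GRCm38.p6), and those of *Mup1* and *Mup20* were not used here. The motifs were chosen with the sequences in view, and matches were counted on both strands. The core of HNF6 sites, ATTGAT, which reads ATCAAT on the strand shown, occurred 2 times in each of the 8 promoters. Of 32817 promoters of the same length in the table, 7.54% held it at least once and 0.695% at least 2 times. The 8 windows belong to close gene copies and do not count as separate finds. *Mup9* and *Mup19* were 96.4% identical there, and *Mup3* and *Mup21* 90.2%. The first bases of the pair of matches lay 63 bases apart in the 6 central copies and 62 bases apart in *Mup3* and *Mup21*. A TATATAA box was found in 7 of 8 against 3.25% of all promoters, and the exception, *Mup7*, has its annotated start further upstream, so that the window ends before the place where the other copies hold the box. TGTTCT, a half-site of the glucocorticoid receptor, was present in *Mup3* and *Mup21* and in no other window searched, against 19.0% of all promoters. The windows of *Mup9*, *Mup17* and *Mup19* begin within or past the matching place, so it was not fully searched in these copies. The STAT5 motif TTCNNNGAA (8.29% of all promoters) and the C/EBP motif TTGCNNAA (10.8%) were in 0 of the 8 windows, which says only that these letters do not occur there. The part upstream of the start is printed for *Mup17*, as an example of the central copies, for *Mup7* with its shifted start, and for *Mup3* and *Mup21*, with the HNF6 core, the TATATAA box and the receptor half-site in capitals (GRCm38.p6, minus strand, 5′ to 3′).
*Mup17* (chr4:61595851-61596082): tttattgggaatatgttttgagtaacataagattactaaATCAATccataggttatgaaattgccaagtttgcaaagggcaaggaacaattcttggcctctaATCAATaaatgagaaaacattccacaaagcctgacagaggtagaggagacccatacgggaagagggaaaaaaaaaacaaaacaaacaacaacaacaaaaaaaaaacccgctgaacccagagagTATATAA
*Mup7* (chr4:60070476-60070596): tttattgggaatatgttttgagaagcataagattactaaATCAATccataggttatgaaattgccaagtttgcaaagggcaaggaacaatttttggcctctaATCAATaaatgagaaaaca
*Mup3* (chr4:62087322-62087531): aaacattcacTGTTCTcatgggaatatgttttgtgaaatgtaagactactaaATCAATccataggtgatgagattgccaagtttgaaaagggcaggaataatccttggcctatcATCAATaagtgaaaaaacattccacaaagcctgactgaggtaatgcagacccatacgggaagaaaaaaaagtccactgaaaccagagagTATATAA
*Mup21* (chr4:62150843-62151049): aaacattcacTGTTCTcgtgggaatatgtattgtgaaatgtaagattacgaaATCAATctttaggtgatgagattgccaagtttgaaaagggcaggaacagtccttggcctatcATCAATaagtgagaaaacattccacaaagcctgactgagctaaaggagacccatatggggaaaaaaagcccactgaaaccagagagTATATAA
From the second ATCAAT to the box there were 123 bases in *Mup17* but 89 in *Mup3* and 86 in *Mup21*.

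The libraries were of like depth, 0.964 to 1.03 times that of WT replicate 1 as judged from the steps between the lowest values, with 1 fragment per kilobase worth 0.0564 to 0.0603 FPKM. At this depth even the least abundant member, *Mup21*, rested on about 2100 to 16500 fragments per library, a counting error of at most 2.2%, which is far below the spread between mice. Of 12225 genes tested with limma (log2(FPKM + 1), mean of at least 0.5 FPKM, Benjamini-Hochberg adjustment), 944 had an adjusted p-value under 0.05, which is 7.72%. Of these, 200 were higher in the KI liver, 1.64% of the genes tested, and 744 were lower. With libraries scaled to the FPKM sum without Mup rows the split was 268 higher and 335 lower, and the median log2 fold change of all genes moved from -0.08 to 0.03. The liver origin was checked by hepatocyte markers, of which 7 were measured and 0 passed the test in either direction (4 had an unadjusted p under 0.05), with a summed level of 27554 to 28441 FPKM in WT and 28320 to 31606 FPKM in KI libraries. KI replicate 2 alone held the adipocyte genes *Adipoq*, *Plin1* and *Lep* at 3.32 to 4.55 FPKM, against at most 0.127 FPKM in any other library. *Cidec* and *Cfd* of the same list were instead lower in every KI library than in any WT library, *Cidec* at 9.94 to 25.2 FPKM in WT and 0.663 to 6.12 FPKM in KI (limma adjusted p = 0.0286) and *Cfd* at 3.1 to 8.62 and 0.112 to 2.54 FPKM. Of the 8 adipocyte markers 7 were tested, 0 were called higher and 1 lower, and all 8 summed to 35.3 to 46.9 FPKM in WT and 9.4 to 77.2 FPKM in KI libraries, and without KI replicate 2 the log2 fold change of the members' FPKM sum (a difference of mean log2 sums) was 1.52 in place of 1.5. Of the 8 Kupffer cell and macrophage markers 0 were called (2 had an unadjusted p under 0.05) and 8 had a log2 fold change below 0, with a median of -0.26 and sums of 166 to 216 FPKM in WT and 144 to 193 FPKM in KI libraries. The 6 endothelial markers summed to 89.4 to 94.9 FPKM in WT and 79.1 to 88.8 FPKM in KI libraries with a median log2 fold change of -0.11, and 1 of them, *Lyve1*, was called lower (log2 fold change -1.26, SE 0.27, limma adjusted p = 0.0281). The sums of stellate (115 to 127 and 107 to 139 FPKM), cholangiocyte (28.5 to 53.7 and 21.8 to 33.9 FPKM) and lymphocyte markers (7.58 to 14.5 and 5.24 to 9.83 FPKM) overlapped between WT and KI, with median log2 fold changes of -0.11, -0.29 and -0.42 and 0 called in each list at 4, 3 and 0 unadjusted p-values under 0.05. The part of these cell types in the Mup values was not tested.

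All 10 members were higher in the KI liver, by 1.58 to 6.28 times in the ratio of group means, and the ranges of the genotypes did not overlap for any of them, where 6.31% of all genes tested had every KI library above every WT library. The median log2 fold change of the members was 1.46, against -0.08 for all genes tested. In WT livers the spread between mice, as the coefficient of variation, was 11.4% (*Mup11*) to 61.8% (*Mup7*), and in KI livers 1.99% (*Mup3*) to 17% (*Mup20*). It was larger in WT than in KI livers for 10 of 10 members. WT replicate 3 was the lowest of the 6 libraries for all 10, and the highest library was KI replicate 1 for 7 genes and replicate 2 for the other 3.

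**Figure D1:**
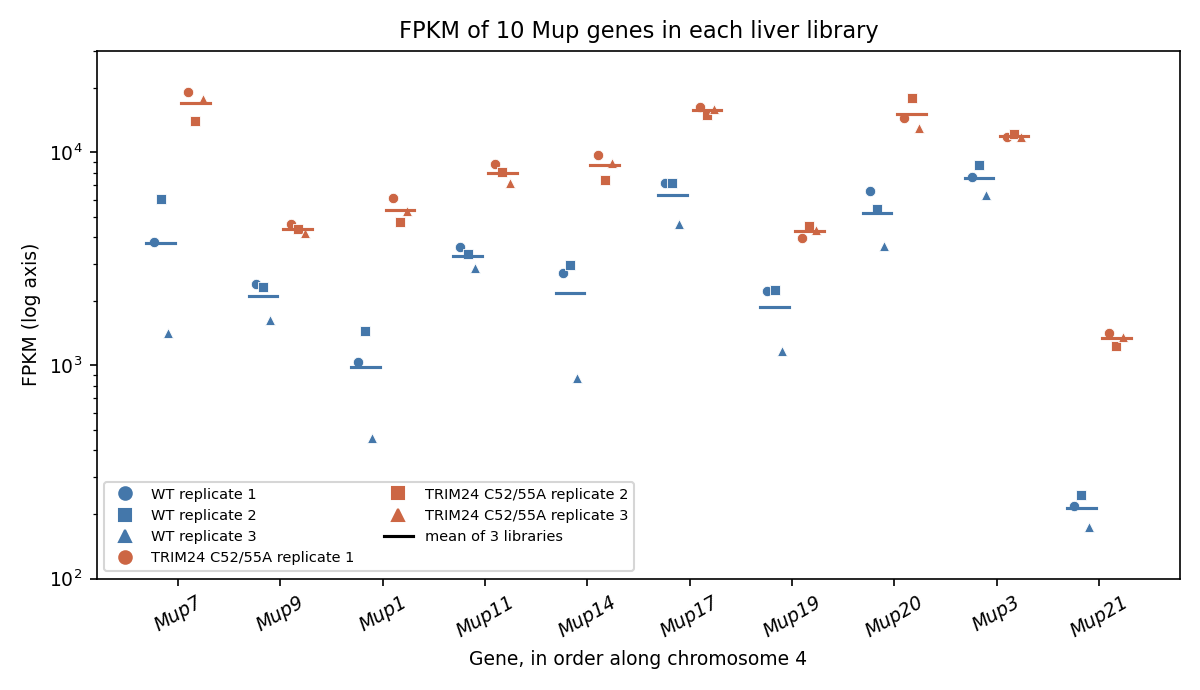
FPKM of the 10 Mup genes (y axis, log scale) in order along chromosome 4 (x axis), with 1 point per library, circles, squares and triangles for replicates 1, 2 and 3, and a bar at the mean of 3 libraries. For each gene the 3 KI points lie above the 3 WT points, and WT replicate 3 is the lowest point.

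*Mup21* showed the largest ratio and the lowest level. It had 219, 246 and 175 FPKM in the 3 WT livers and 1420, 1240 and 1363 FPKM in KI replicates 1 to 3. The lowest KI value was 5.04 times the highest WT value. The means were 213 ± 35.7 and 1341 ± 92 FPKM (SD, n = 3 each), and the log2 fold change was 2.66 (SE, the standard error, 0.13).

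*Mup3*, the closest relative of *Mup21* in sequence and its neighbour on the chromosome, showed the smallest ratio of the 10. It had 7654, 8709 and 6310 FPKM in WT and 11830, 12213 and 11777 FPKM in KI replicates 1 to 3. The groups were separate but close, with the lowest KI value 1.35 times the highest WT value, and the log2 fold change was 0.67 (SE 0.13). Within a library, the ratio of *Mup21* to *Mup3* does not depend on how libraries are scaled. It was 0.0286, 0.0282 and 0.0278 in WT and 0.12, 0.102 and 0.116 in KI replicates 1 to 3, higher in every KI library than in any WT library.

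*Mup20* (darcin) had 6619, 5397 and 3639 FPKM in WT and 14524, 18002 and 12965 FPKM in KI replicates 1 to 3. Its highest value was in KI replicate 2, and the groups were separated by a factor of 1.96. The means were 5219 ± 1498 and 15164 ± 2579 FPKM (SD, n = 3 each), a ratio of 2.91, with a log2 fold change of 1.57 (SE 0.22). The pseudogene row *Mup-ps19*, with which *Mup20* shares most of its coding windows, followed it closely: the ratio of *Mup20* to *Mup-ps19* lay between 3.05 and 3.25 in all 6 libraries.

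Among the 7 near-identical copies, *Mup1*, *Mup7* and *Mup14* had the largest ratios and also varied most in WT livers. *Mup7* had 3790, 6074 and 1424 FPKM in WT and 19161, 13995 and 17905 FPKM in KI replicates 1 to 3. WT replicate 3 stood at 0.289 times the mean of the other 2 WT libraries, and the log2 fold change was 2.40 (SE 0.45). Without WT replicate 3 the ratio of means fell from 4.52 to 3.45.

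*Mup1* had 1033, 1452 and 458 FPKM in WT and 6136, 4690 and 5316 FPKM in KI replicates 1 to 3, with a log2 fold change of 2.60 (SE 0.36). *Mup14* had 2727, 2961 and 876 FPKM in WT and 9746, 7406 and 8956 FPKM in KI replicates 1 to 3, with a log2 fold change of 2.17 (SE 0.41). In both genes WT replicate 3 was the lowest library, at 0.368 and 0.308 times the mean of the other 2 WT libraries. Without it the ratios of means were 4.33 for *Mup1* and 3.06 for *Mup14*, against 5.48 and 3.98 with all libraries.

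*Mup9*, *Mup11*, *Mup17* and *Mup19* had ratios of means between 2.06 and 2.49. *Mup17*, the most abundant of the central copies in WT, had 7151, 7179 and 4593 FPKM in WT and 16366, 14909 and 15929 FPKM in KI replicates 1 to 3. *Mup11* had 3593, 3349 and 2864 FPKM in WT and 8832, 8074 and 7169 FPKM in KI replicates 1 to 3, and was the steadiest member across WT mice. *Mup9* had 2407, 2342 and 1640 FPKM in WT and 4612, 4380 and 4191 FPKM in KI replicates 1 to 3. *Mup19*, which differs from *Mup9* at a single coding base, had 2248, 2250 and 1176 FPKM in WT and 3974, 4539 and 4338 FPKM in KI replicates 1 to 3. Their log2 fold changes were 1.35 (*Mup17*, SE 0.17), 1.3 (*Mup11*, 0.12), 1.06 (*Mup9*, 0.15) and 1.24 (*Mup19*, 0.23), and the ranges of *Mup9* and *Mup19* overlapped within each genotype.

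Summed over the 10 members, FPKM were 37442, 39959 and 23154 in WT and 96603, 89448 and 89908 in KI replicates 1 to 3. The mean sum was 33518 ± 9063 FPKM in WT and 91986 ± 4004 FPKM in KI livers (SD, n = 3 each), a ratio of 2.74. The difference between the group means of the log2 sums was 1.5, and 1.25 without WT replicate 3, the library with the lowest sum. The members held 3.59% to 6.16% of all FPKM in WT libraries and 13.2% to 14.3% in KI libraries. The 7 near-identical copies alone summed to 20529 ± 6629 FPKM in WT and 63542 ± 5422 FPKM in KI livers, a ratio of 3.1, and *Mup3* with *Mup21* to 7771 ± 1238 and 13281 ± 159 FPKM, a ratio of 1.71 (SD, n = 3 each).

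The make-up of the sum differed between the genotypes. *Mup3* held the largest part in WT, 20.4%, 21.8% and 27.3% of the members' sum in replicates 1 to 3, and 12.2%, 13.7% and 13.1% in KI livers. *Mup7* went the other way, with 10.1%, 15.2% and 6.1% in WT and 19.8%, 15.6% and 19.9% in KI livers, the closest libraries being WT replicate 2 and KI replicate 2. *Mup1* moved from a mean of 2.8% to 5.8% and *Mup21* from 0.7% to 1.5%. *Mup17* held 19.1%, 18% and 19.8% in WT and a little less, 16.9%, 16.7% and 17.7%, in KI livers. The parts of *Mup20* overlapped, at 13.5% to 17.7% in WT and 14.4% to 20.1% in KI livers.

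**Figure D2:**
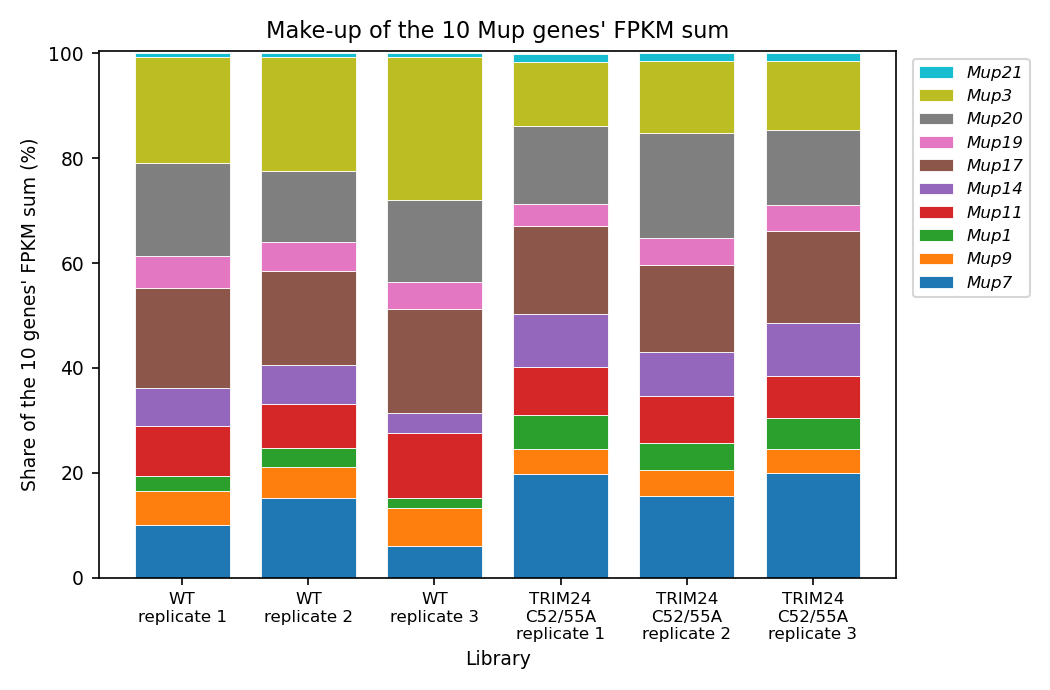
Share of each gene in the FPKM sum of the 10 Mup genes (y axis, percent) in each library (x axis), stacked in order along chromosome 4. *Mup3* takes 20.4% to 27.3% of the WT bars and 12.2% to 13.7% of the KI bars, while *Mup7* at the base is widest in KI replicates 1 and 3.

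The order of the levels changed accordingly. In WT livers it was *Mup3*, *Mup17*, *Mup20*, *Mup7*, *Mup11*, *Mup14*, *Mup9*, *Mup19*, *Mup1* and *Mup21* from the highest mean down, and the ranges of each neighbouring pair overlapped except for *Mup1* and *Mup21*. In KI livers it was *Mup7*, *Mup17*, *Mup20*, *Mup3*, *Mup14*, *Mup11*, *Mup1*, *Mup9*, *Mup19* and *Mup21*. Here the ranges overlapped among *Mup7*, *Mup17* and *Mup20*, between *Mup14* and *Mup11* and between *Mup9* and *Mup19*, and the other neighbours were separate. Among all genes of the files, 2 members were in the 20 highest by mean FPKM in WT and 6 in KI livers.

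The members are abundant enough to weigh on the other values of a library. All rows named Mup together summed to 47214 ± 11756 FPKM in WT and 126589 ± 5294 FPKM in KI livers (SD, n = 3 each), or 5.23% to 8.5% and 18.2% to 19.7% of all FPKM. The rows not named Mup summed to 592643, 593114 and 610916 FPKM in WT and 540550, 552141 and 553530 FPKM in KI replicates 1 to 3. Every KI sum was below every WT sum, with a ratio of means of 0.916 (two-sided exact permutation p = 0.1, and 3 against 3 mice cannot give a smaller one). The FPKM of all genes, the denominator of the shares given here, summed to 644619 to 648221 in WT and 673244 to 676791 in KI libraries, a ratio of means of 1.05 with every KI sum above every WT sum (two-sided exact permutation p = 0.1). Since FPKM are relative to the mapped fragments of a library, a larger Mup part leaves a smaller part for other genes, and whether their RNA per cell differed cannot be told apart from this. In bulk liver, fewer cells of a type and less RNA per cell likewise cannot be told apart.

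**Figure D3:**
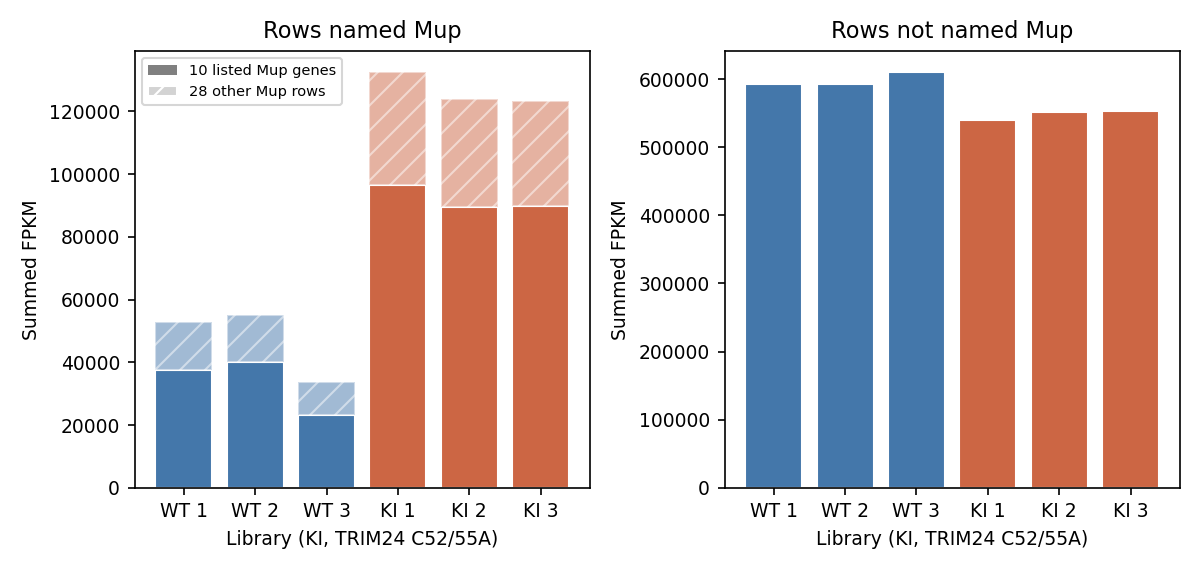
FPKM summed per library (y axes, from 0) for rows named Mup (left, solid for the 10 genes and hatched for the 28 other rows) and for all other rows (right), with WT in blue and KI in orange. Mup bars reach 33703 to 55107 FPKM in WT and 123261 to 132694 FPKM in KI libraries, and the other rows together stand between 540550 and 610916 FPKM.

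Of the 28 other rows named Mup, 14 passed the filter on low values and 9 of these were higher in the KI liver (limma, adjusted p under 0.05), against 1.64% of all genes tested, while 0 were lower. Their median log2 fold change was 1.20. They are not independent of the members, since their reads can be shared with them. The 5 most abundant were *Mup10*, *Mup16*, *Mup-ps19*, *Mup13* and *Mup12*. *Mup12*, with *Mup1* as its closest copy, had 815, 1134 and 340 FPKM in WT and 4602, 3661 and 4168 FPKM in KI replicates 1 to 3, a log2 fold change of 2.60 (SE 0.37, limma adjusted p = 0.00765). *Mup16*, *Mup13* and *Mup-ps19* rose by log2 fold changes of 1.33, 1.36 and 1.55 (adjusted p = 0.00368, 0.00559 and 0.00662 from limma).

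*Mup10* moved least among the abundant copies. It had 4619, 4322 and 4146 FPKM in WT and 6861, 5914 and 6046 FPKM in KI replicates 1 to 3, a log2 fold change of 0.52 (SE 0.10, limma adjusted p = 0.018). Its nearest copy in 50-base windows, with 98% of them shared, is the gene at positions 60817589 to 60821463, *Mup22* in GENCODE M21, whose row has no Mup name in the files. That row had 5952, 5590 and 5139 FPKM in WT and 9861, 8481 and 8395 FPKM in KI replicates 1 to 3, a log2 fold change of 0.68 (SE 0.10, limma adjusted p = 0.00977). In these 2 rows WT replicate 3 was also the lowest library, at a smaller distance from the other WT mice than in *Mup7*. The adjusted p-value of *Mup10* ran from 0.0118 to 0.312 over 15 alternatives (limma) and was above 0.05 in 6 of them, namely without a filter, with quantile normalization, and without any of the WT libraries or KI replicate 1.

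The remaining called rows were *Mup2*, *Mup8*, *Mup15* and *Mup18*, with log2 fold changes of 2.33, 2.0, 2.44 and 1.06 (adjusted p = 0.00217, 0.00885, 0.00768 and 0.00354 from limma). The 5 tested rows that were not called, *Mup5*, *Mup6*, *Mup-ps6*, *Mup-ps12* and *Mup-ps13*, were all close to the limit of 0.5 FPKM, with means of 0.656 to 1.28 FPKM. All 14 rows under the filter are pseudogenes by name. The high levels of *Mup-ps19*, at 1192 to 5834 FPKM over the 6 libraries, were the exception among pseudogene rows.

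**Figure D4:**
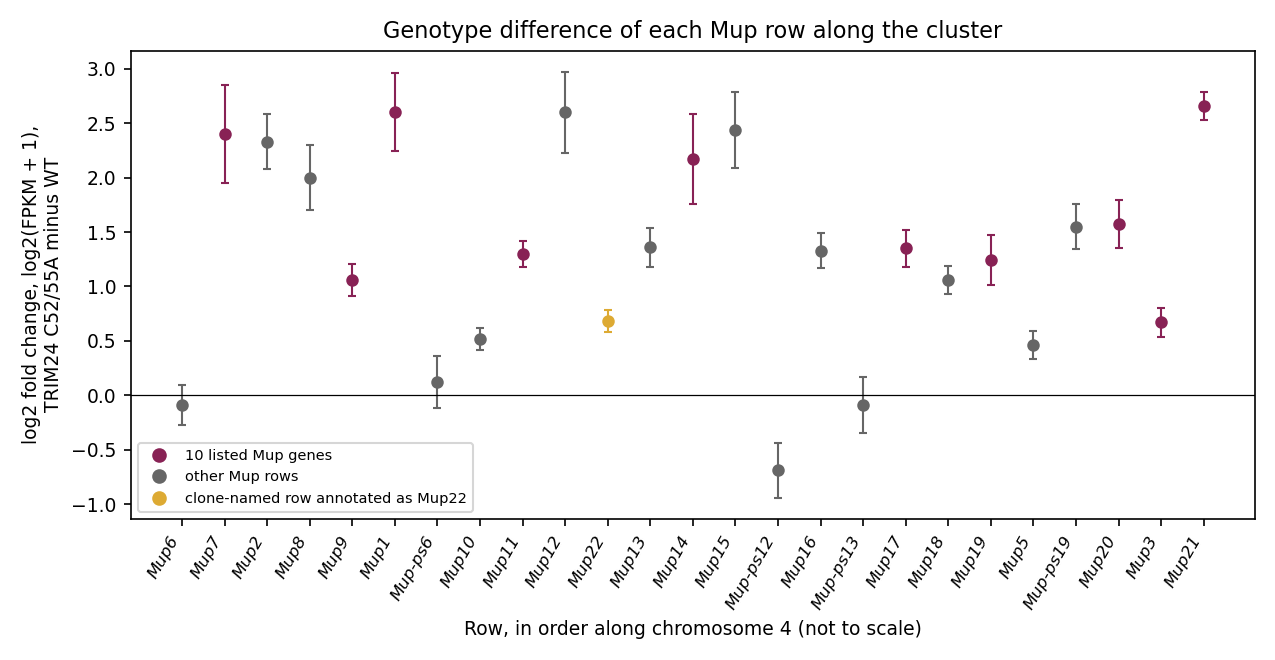
log2 fold change of log2(FPKM + 1), KI minus WT (y axis), for each Mup row tested in order along chromosome 4 (x axis, not to scale), with bars of 1 standard error on each side. The 10 listed genes lie between 0.67 (*Mup3*) and 2.66 (*Mup21*), the abundant other rows between 0.52 (*Mup10*) and 2.60 (*Mup12*), and the 5 rows of low FPKM between -0.69 and 0.46.

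Genes beside the cluster were called in both directions. Of 46 genes not named Mup between the members or within 2 Mb of them, 31 were tested, 2 were higher and 2 lower in the KI liver (limma, adjusted p under 0.05, against 7.72% of all genes tested in either direction), and their median log2 fold change was -0.08, the same as for all genes. The 2 higher genes were the *Mup22* row and *Col27a1*, a fibrillar collagen chain (log2 fold change 0.70, SE 0.13, limma adjusted p = 0.0165), whose call was lost in 5 of 15 alternatives (highest adjusted p = 0.0676 from limma). *Col27a1* had 4.07, 3.18 and 3.56 FPKM in WT and 5.97, 7.64 and 5.86 FPKM in KI replicates 1 to 3. The 2 lower genes were *Orm2* and *Gm13775*. *Gm13775*, whose interval in the files coincides with that of *Mup-ps16*, had 31.1, 26.1 and 28.1 FPKM in WT and 7.59, 8.58 and 17 FPKM in KI replicates 1 to 3 (log2 fold change -1.36, SE 0.25, limma adjusted p = 0.0174), a call lost in 4 of 15 alternatives (highest adjusted p = 0.0696 from limma). It lies beside *Mup19* and moved in the opposite direction to it.

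The immediate neighbours outside the cluster did not pass the test. *Snx30*, a sorting nexin, had a log2 fold change of 0.14 (95% interval -0.09 to 0.37, adjusted p = 0.464 from limma) and *Inip* one of -0.19 (-0.43 to 0.05, adjusted p = 0.323 from limma). On the other side *Zfp37* was under the filter with at most 0.195 FPKM, and *Slc31a2*, a copper transporter gene, had a log2 fold change of -0.16 (-0.42 to 0.09, adjusted p = 0.422 from limma).

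Genes of growth hormone signalling and of the transcription factors that act on hepatic promoters were listed to set beside the Mup genes. Of 37 listed genes, 34 were tested, 0 were higher and 1 was lower (limma, adjusted p under 0.05, against 7.72% of all genes tested), and 5 had an unadjusted p under 0.05. Their median log2 fold change was -0.01, with 16 genes above 0 and 18 below, or 22 above and 12 below with libraries scaled to the FPKM sum without Mup rows. *Ghr*, the growth hormone receptor, had 173, 192 and 194 FPKM in WT and 187, 172 and 204 FPKM in KI replicates 1 to 3. Its log2 fold change of 0.01 had a 95% interval from -0.19 to 0.22. *Jak2*, the kinase bound to that receptor, had a log2 fold change of -0.08 (-0.30 to 0.14), and *Stat5b*, the factor it activates, one of 0.15 (-0.16 to 0.46). The adjusted p-values of the 3 genes were 0.956, 0.668 and 0.572 (limma). These are transcript levels, and neither the phosphorylation of STAT5B nor the level of growth hormone was measured here.

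Of the growth hormone targets in this list, *Igf1*, *Igfals*, *Socs2* and *Cish* did not pass the test. Their adjusted p-values were 0.748, 0.34, 0.486 and 0.942 (limma). *Igf1*, the main endocrine target, had 164, 211 and 169 FPKM in WT and 197, 168 and 210 FPKM in KI replicates 1 to 3 (log2 fold change 0.08, 95% interval -0.20 to 0.36). *Igfals*, which encodes its carrier subunit, had a log2 fold change of 0.31 (-0.09 to 0.71), and it was called higher in 1 of 15 alternatives, without KI replicate 2 (limma adjusted p = 0.0403). *Socs2*, a feedback inhibitor, had 2.33, 4.34 and 1.7 FPKM in WT and 4.16, 1.67 and 18.7 FPKM in KI replicates 1 to 3. *Cish*, another feedback inhibitor, had 2.75, 8.81 and 2.37 FPKM in WT and 1.27, 0.939 and 19.8 FPKM in KI replicates 1 to 3. Both were highest in KI replicate 3 and lowest, among the KI libraries, in replicate 2.

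*Bcl6*, a repressor that competes with STAT5 at sex-biased liver genes, had 3.27, 6.36 and 3.08 FPKM in WT and 28.7, 26.8 and 4.91 FPKM in KI replicates 1 to 3. KI replicates 1 and 2 were above every WT library and replicate 3 was within the WT range, and the gene did not pass the test (log2 fold change 1.75, SE 0.57, limma adjusted p = 0.107). It was called in 1 of 15 alternatives, without KI replicate 3 (limma adjusted p = 0.00174), and in the other 14 it was not, with adjusted p-values up to 0.308 (limma). In KI replicates 1 to 3 the members' sum was 96603, 89448 and 89908 FPKM.

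Of the factors, *Hnf4a* was nearly level, with 146 to 151 FPKM in WT and 148 to 158 FPKM in KI libraries (log2 fold change 0.04, 95% interval -0.12 to 0.19). *Onecut1*, which encodes HNF6, had 1.39, 1.98 and 1.94 FPKM in WT and 2.43, 0.85 and 21.7 FPKM in KI replicates 1 to 3. Its log2 fold change was 0.93 (-0.83 to 2.69, limma adjusted p = 0.526). *Zhx2* had 4.03 to 4.56 FPKM in WT and 4.57 to 5.34 FPKM in KI libraries. Its log2 fold change was 0.18 (-0.05 to 0.40, limma adjusted p = 0.342). *Cebpb*, a C/EBP factor of the acute phase response, was the called gene. It had 27.7, 19 and 19.9 FPKM in WT and 7.33, 13.1 and 13.5 FPKM in KI replicates 1 to 3 (log2 fold change -0.94, SE 0.23, limma adjusted p = 0.0428), and its adjusted p-value was above 0.05 in 10 of 15 alternatives, with a range of 0.0257 to 0.129.

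Receptors and a repressor linked to the sex difference of the liver were low or did not pass the test. *Cux2*, a female-biased repressor, was under the filter, at 0.0682 to 0.358 FPKM over the 6 libraries. *Esr1*, the oestrogen receptor alpha, had a log2 fold change of -0.15 (95% interval -0.45 to 0.16). *Prlr*, the prolactin receptor and itself female-biased, had 35, 39.1 and 54.6 FPKM in WT and 29.8, 15.4 and 36.9 FPKM in KI replicates 1 to 3 (log2 fold change -0.69, SE 0.29, limma adjusted p = 0.202).

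**Figure D5:**
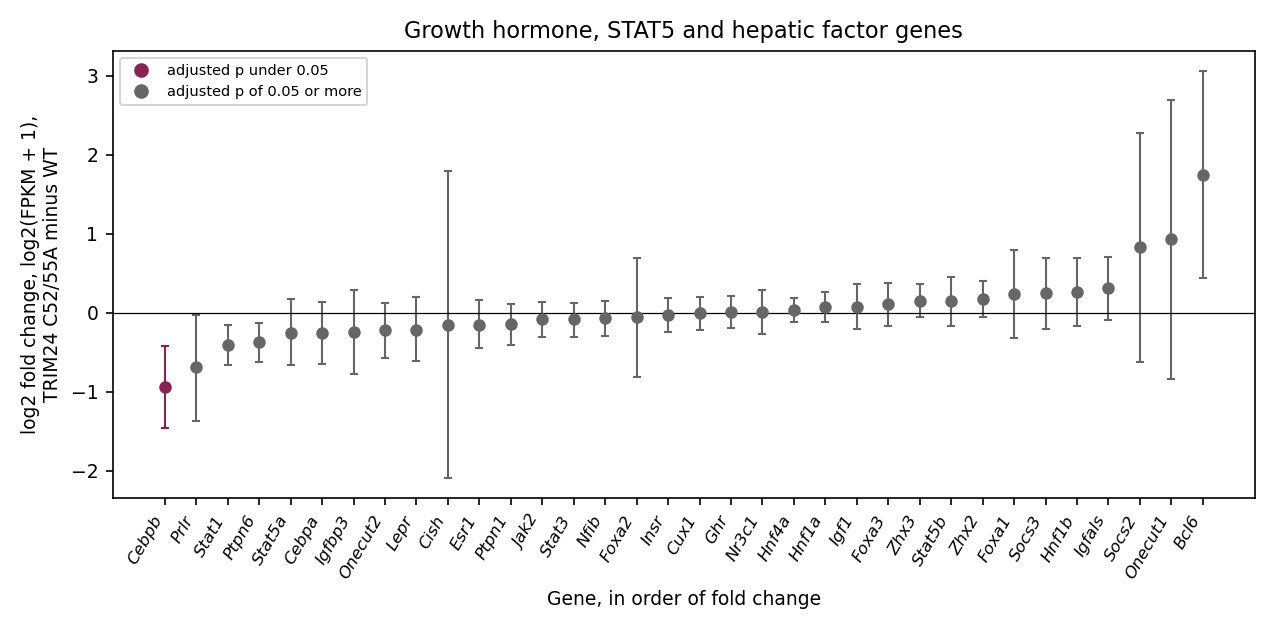
log2 fold change of log2(FPKM + 1), KI minus WT (y axis), for the 34 tested genes of growth hormone signalling and hepatic factors (x axis, in order of fold change), with 95% intervals from limma. *Cebpb* at -0.94 has an adjusted p-value under 0.05, and the widest intervals are those of *Cish*, *Onecut1*, *Socs2* and *Bcl6*.

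The other genes of the lipocalin fold, to which the major urinary proteins belong, did not move as one. Of 9 tested, 1 was higher and 2 were lower (limma, adjusted p under 0.05, against 7.72% of all genes tested), and the median log2 fold change was -0.17. *Obp2a*, an odorant-binding lipocalin on another chromosome, had 0.0945, 0.734 and 1.79 FPKM in WT and 223, 127 and 168 FPKM in KI replicates 1 to 3, a log2 fold change of 6.60 (SE 0.32, limma adjusted p = 4.54e-05). *Lcn2*, an iron-scavenging lipocalin of the acute phase, had 11.6, 7.68 and 16.7 FPKM in WT and 1.65, 2.36 and 2.77 FPKM in KI replicates 1 to 3, a log2 fold change of -1.95 (SE 0.25, limma adjusted p = 0.0048). *Orm2*, an acute phase glycoprotein gene within 2 Mb of the cluster, fell from 15.6 ± 1.99 to 3.49 ± 0.282 FPKM (SD, n = 3 each), which on the log2 scale is a fold change of -1.88 (SE 0.11, limma adjusted p = 0.000132).

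The other 6 lipocalins tested did not pass the test. *Rbp4*, the retinol carrier, had 2310 ± 158 FPKM in WT and 1782 ± 157 FPKM in KI livers (SD, n = 3 each; log2 fold change -0.38, adjusted p = 0.0535 from limma), and its adjusted p-value was under 0.05 in 4 of 15 alternatives (0.0242 to 0.184). *Ambp*, the precursor of alpha-1-microglobulin, had a log2 fold change of 0.03 (95% interval -0.18 to 0.24) and lies on the same chromosome within 2 Mb of the cluster. The log2 fold changes were 0.42 for *Apom* (0.07 to 0.77), -0.20 for *Orm1* (-0.49 to 0.09), -0.17 for *C8g* (-0.33 to -0.01) and 0.73 for *Ptgds* (0.18 to 1.28, at a mean of only 0.864 FPKM), with adjusted p-values of 0.139, 0.399, 0.196 and 0.106 (limma).

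Among the 12201 tested genes not named Mup, those with a profile closest to the members' sum were *C6*, *Ces3b*, *C8b*, *Cyp4a12a* and *Gm16551*. Likeness was the Euclidean distance over the 6 libraries between values of log2(FPKM + 1) taken relative to their WT mean, and it was 0.44, 0.45, 0.49, 0.50 and 0.58 for these genes. *C6* and *C8b* encode components of the terminal complement complex. *C6* had 45.8, 49.8 and 27.3 FPKM in WT and 131, 138 and 92 FPKM in KI replicates 1 to 3, with WT replicate 3 lowest as in the members. *Cyp4a12a*, a male-biased omega-hydroxylase, had 27.9, 28.7 and 23 FPKM in WT and 83, 81.3 and 92.2 FPKM in KI replicates 1 to 3. *Ces3b*, a carboxylesterase, had 69.3, 95.1 and 61.2 FPKM in WT and 205, 205 and 242 FPKM in KI replicates 1 to 3. *C8b* had 38.4, 52.9 and 35 FPKM in WT and 136, 137 and 112 FPKM in KI replicates 1 to 3, and *Gm16551*, a predicted gene, stood far lower, at 0.583 to 0.945 FPKM in WT and 3.13 to 3.91 FPKM in KI livers. These genes were picked for their profile, so their values are a description as well.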

How the data were processed

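RNA was measured in 3 WT and 3 TRIM24 C52/55A (KI) livers. The authors made FPKM values and deposited them as 1 list of genes for each mouse. The submitters' processing notes name bcl2fastq, Salmon 0.14.0, DESeq2 1.30.0 and GRCm38, without their roles. How fragments shared by copies were assigned is not given in the sources used here. Genes that a table does not list were set to 0. Libraries were grouped by their titles.

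Genes averaging 0.5 FPKM or more over the 6 libraries (12225) entered a limma 3.58.1 fit of log2(FPKM + 1), run under R 4.3.3 (eBayes with a mean-variance trend, Benjamini-Hochberg adjustment over all genes tested). Fold changes on this scale understate those of genes of low FPKM. The FPKM sums of all genes and of the rows not named Mup had an exact permutation test. Joins and sequence counts used pandas 2.3.3, scipy 1.17.1, numpy 2.4.6, Biopython 1.88 and matplotlib 3.10.9 under Python 3.11.15, with GENCODE M21 and RefSeq sequences. From each gene the coding transcript nearest the family's median length was taken.

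The members, the gene lists, the rule for naming genes and the motifs were chosen with earlier results of these data known. Named were all members, the 5 other Mup rows of highest mean, 14 of the growth hormone list (1 of them is not reported here) and any called, lipocalins of at least 0.5 FPKM, the 2 nearest genes on each side of the cluster and those called, and the 5 nearest profiles. *Mup2*, *Mup8*, *Mup15*, *Mup18*, *Onecut1* and the Mup rows not called are named after their values were seen. Alternatives were the pseudocount, the filter, the scaling, the variance model, the replicate block and each library left out.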

Additional observations from a re-analysis of the deposited data

How the results depend on the processing

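All 10 members kept a positive log2 fold change in each of the 15 alternatives, which is no sign of stability either. Their genotype ranges do not overlap, so leaving out a library could not reverse it. The filter, the variance model and the replicate block leave these fold changes as they are. The log2 fold change of their sum (a difference of mean log2 sums), 1.5, lay between 1.25 and 1.64 over the alternatives that could move it. The number of members with an adjusted p-value under 0.05 reflects their choice on this contrast, so nothing is read from it. It was 10, where 1.64% of all genes tested were called higher. The number was 5 without a filter on low FPKM, 6 with quantile normalization and 6 to 10 with each library left out, the 6 without KI replicate 1. The 9 calls among other Mup rows ran from 8 to 10. The 10 without KI replicate 3 include *Mup-ps12*, called lower, and there were also 10 with the *Mup22* row counted as Mup, an alternative chosen after seeing the data. With that row moved, the ratio of the FPKM sums of all other rows was 0.91 in place of 0.916.

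Calls over all genes numbered 944, against 347 without a filter, 1552 with TPM (every library brought to the same total), 603 with scaling to the FPKM sum without Mup rows and 294 to 1280 with each library left out. Higher and lower calls numbered 193 and 1359 with TPM, 255 and 378 with quantile normalization and 250 and 405 with median-of-ratios scaling. In the growth hormone list the 1 call became 3 with TPM and 0 without a filter, without the mean-variance trend, with median-of-ratios scaling, with quantile normalization and with scaling to the FPKM sum without Mup rows, and was 0 to 3 with each library left out. Beside the cluster the 4 calls became 1 without a filter and were 2 to 6 with each library left out, the 2 without WT replicate 3 or KI replicate 1. The cause of these changes was not tested.

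Same-numbered mice are different animals. Their deviations from the group means correlated at -0.123, -0.0988 and 0.00267 for numbers 1, 2 and 3, so the numbers do not pair the samples. With the replicate block 578 genes were called in all, 9 other Mup rows and 3 lipocalins among them. Calls beside the cluster went from 4 to 3, without *Col27a1*, and in the growth hormone list from 1 to 0.

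The files give no counts, so no count test was run. With 3 mice per group the exact test cannot pass 0.05. The levels of the central copies and of their sum also carry the unmeasured error of dividing shared fragments.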
